A study of Rattus norvegicus with 65 samples.

Results

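The genes described here encode the proteins of the mitochondrial ribosome in cultured cardiomyocytes of newborn rats, which are heart muscle cells taken directly from the tissue and not a cell line. They were chosen by name alone, as every measured gene whose rat symbol begins with Mrpl or Mrps followed by a number. The rule gave 71 of 14554 genes, with 43 named for the large subunit (Mrpl) and 28 named for the small subunit (Mrps). Large and small subunit genes below are those with these symbols, and the subunit that holds each protein was not checked. The cells received 10 mM 5FU (5-fluorouracil), 2.5 mM Ace (acetaminophen) or 1.25 μM Dox (doxorubicin) for 6 or 24 hours. Control wells held DMSO alone, at 1% for 5FU (DMSO1) and at 0.25% for Ace and Dox (DMSO2), and all wells were serum starved overnight before exposure. Each of the 10 groups had 6 or 7 libraries, 65 in all. Cells of several litters had been mixed before plating, so the spread between libraries is that between wells and not between animals.

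Mitochondria carry their own ribosome, which translates the few proteins encoded in mitochondrial DNA, all of them parts of the respiratory chain or ATP synthase. Its RNAs come from the mitochondrial genome, while its proteins are encoded in the nucleus, made in the cytosol and imported. The large subunit joins amino acids and the small subunit reads the messenger RNA. Heart muscle depends on oxidative phosphorylation, and inherited defects of several of these proteins cause cardiomyopathy. Of the 71 genes, 41 have a counterpart in bacterial ribosomes and 29 encode proteins that were added in mitochondria. The remaining gene, Mrpl41l1, is named as a like copy of Mrpl41.

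Library totals ran from 14332827 to 25738297 counts, and 70 of the 71 genes had at least 10 counts in every library. Mean counts per library ran from 32 for Mrpl1 to 2695 for Mrpl12. Since transcript lengths were not used, levels are compared between groups and not between genes. Cardiomyocyte markers were present in every group, and none of the 8 was at 0 in all libraries of a group. A library of DMSO1 at 24 hours, a library of 5FU at 6 hours (each library 1) and a library of Dox at 24 hours (library 7) stood farthest from their groups over all genes, and counts without these 3 libraries are given where they differ by more than 1.5 times.

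Levels are given as CPM, the counts of a gene per 1000000 counts of its library after TMM scaling, and changes as log2 fold changes of a drug group against its own DMSO control. A gene was called when the Benjamini-Hochberg FDR over all 14554 genes was below 0.01 in edgeR's quasi-likelihood test, and adjusted p-values below are from that test. With this rule the most calls among the mitochondrial ribosomal protein genes of a drug comparison were in Dox at 24 hours, where 40 of 71 were called lower and 16 higher, against 41% and 40.4% of all genes. After 5FU for 24 hours, 50 were called higher and 0 lower, against 28% and 27.8% of all genes. For Ace, 3 (4.23%) were called higher and 11 (15.5%) lower after 6 hours, against 16.5% and 15.2% of all genes. After 24 hours 14 (19.7%) were called higher and 2 (2.82%) lower, against 18.2% and 19.1% of all genes. The 11 lower at 6 hours and the 14 higher at 24 hours are near the shares over all genes.

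**Figure D1:**
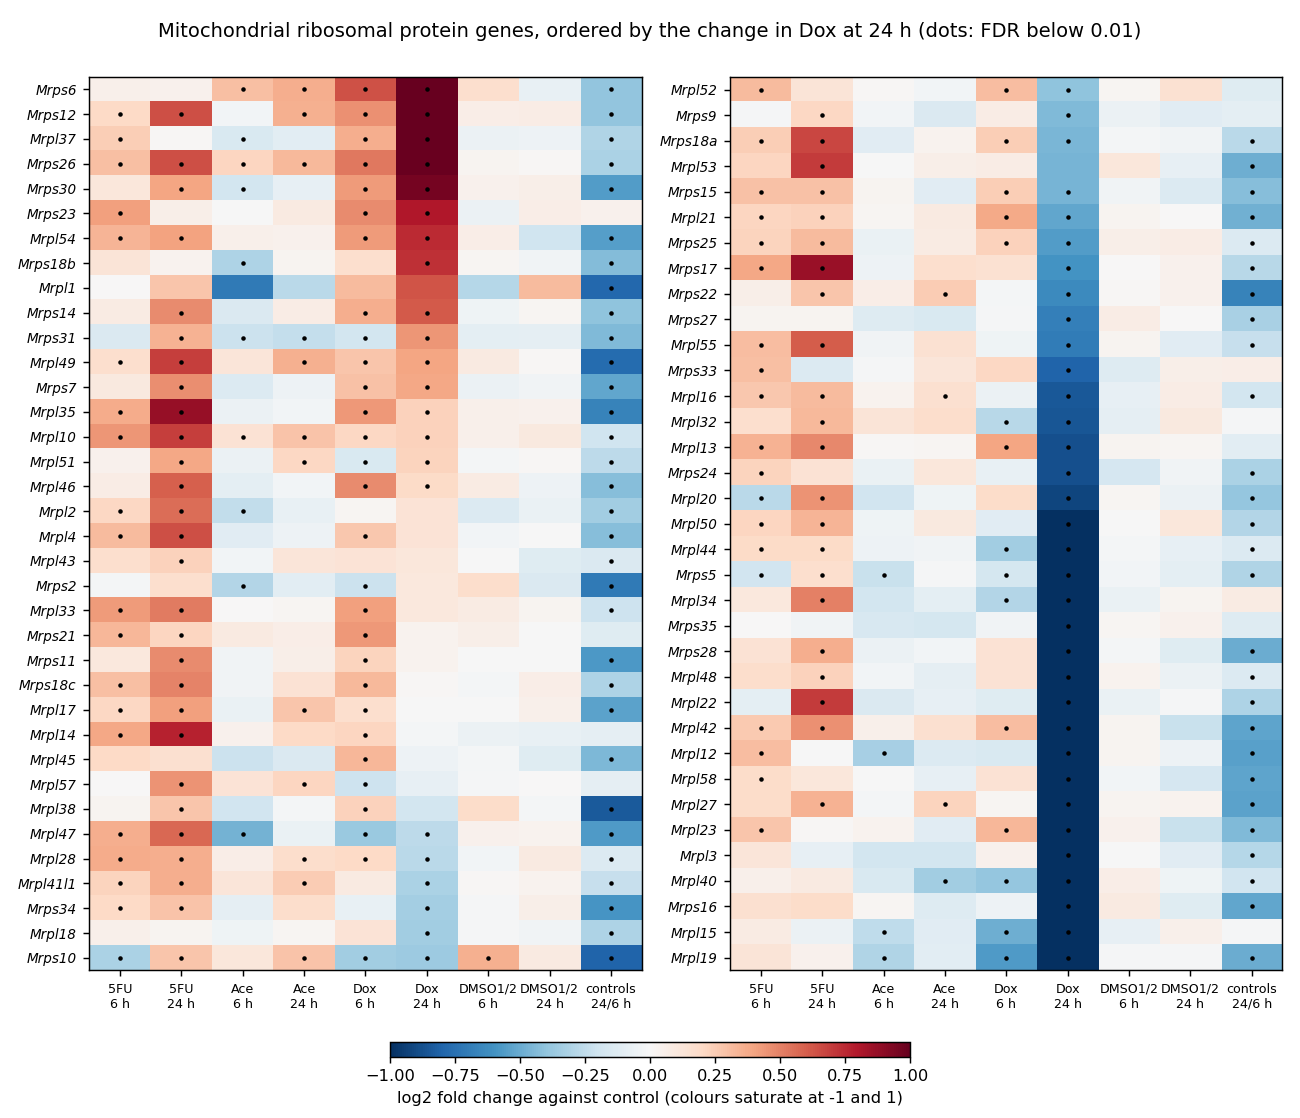
Log2 fold changes of the 71 genes (rows, ordered by the change in Dox at 24 hours and split over both panels) in the 6 drug comparisons, in DMSO1 against DMSO2 and in controls at 24 against 6 hours (columns). Red is higher and blue lower than the control, colours saturate at -1 and 1, and dots mark an FDR below 0.01; the 5FU columns are mostly red, and the Dox column at 24 hours runs from 1.34 for Mrps6 to -2.18 for Mrpl19.

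The levels in control cells differed between 6 and 24 hours. Time in culture and length of DMSO exposure cannot be told apart here. From 6 to 24 hours in the DMSO wells, 59 of the 71 genes were called lower and 0 higher, with a median log2 change of -0.32. Among all genes tested, 31.9% were called lower and 32.7% higher. At an unadjusted p below 0.05 there were 64 lower and 0 higher genes, and DESeq2 called 59. Mrpl38, a protein of the central protuberance of the large subunit, had the lowest value, -0.84 (SE 0.053, edgeR adjusted p = 3.74e-22). The lowest value among the small subunit genes was -0.80. Mrpl49 of the large subunit fell by 0.77 (SE 0.041, edgeR adjusted p = 1.77e-25). The highest value, 0.08 for Mrpl34, did not pass the test. All 56 genes of cytosolic ribosomal proteins were called lower too, with a median of -0.37, and 20 of 34 Nduf genes of respiratory complex I were called lower. The 7 fibroblast markers were all called higher from 6 to 24 hours in the controls, with a median of 0.53. Of 6 macrophage markers 5 were called higher (median 0.82), and of 4 smooth muscle markers 3 were called lower and 1 higher (median -1.49). Their part in the result was not tested. Drug effects below are therefore set against controls of the same time.

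Few of these genes differed between the 2 DMSO controls. At 6 hours 1 gene of the 71 was called higher in DMSO1 and 0 lower, where 9.87% of all genes were called higher and 6.6% lower, and without DMSO1 library 3 the count was 2. With scaling by library size alone 1 was called higher and 3 lower. That gene was Mrps10, a head protein of the small subunit, with a log2 difference of 0.36 (SE 0.08, edgeR adjusted p = 0.000525). At 24 hours edgeR called 0 genes and DESeq2 0, where 0.137% of all genes were called higher and 0.295% lower, and 2 genes were higher and 6 lower at an unadjusted p below 0.05.

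Summed over all 71 genes, these transcripts took 2936 to 3308 counts per 1000000 counts of the library in the 7 DMSO2 libraries at 24 hours (median 3012). In Dox at 24 hours they took 2500 to 2839 (median 2687), and every Dox library lay below every DMSO2 library. In 5FU at 24 hours they took 3730 to 4077 (median 3834), all above the 2923 to 3320 of DMSO1 (median 3096). In Ace at 24 hours they took 3180 to 3396 (median 3243), which overlapped DMSO2. At 6 hours each drug group overlapped its control, with medians of 4117 in 5FU against 3837 in DMSO1, and of 3741 in Ace and 3940 in Dox against 4067 in DMSO2. These sums are a description with no test.

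For Dox at 24 hours the subunits, assigned by symbol alone, are given apart. The 43 large subunit genes together took 1380 to 1587 per 1000000 counts (median 1513), against 1867 to 2124 in DMSO2 (median 1927). The 28 small subunit genes took 1120 to 1253 per 1000000 counts (median 1174) against 1069 to 1184 in DMSO2 (median 1088), so that these ranges overlapped. Gene by gene the medians of the subunits were close, while the quartiles were not. Of the large subunit genes 25 were called lower and 7 higher, with a median log2 fold change of -0.40 and quartiles of -1.15 and 0.11. Of the small subunit genes 15 were called lower and 9 higher, with a median of -0.35 and quartiles of -0.65 and 0.49. Among all genes 41% were called lower and 40.4% higher. In sequencing of bulk cells, fewer cells of a type and less RNA per cell cannot be told apart.

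**Figure D2:**
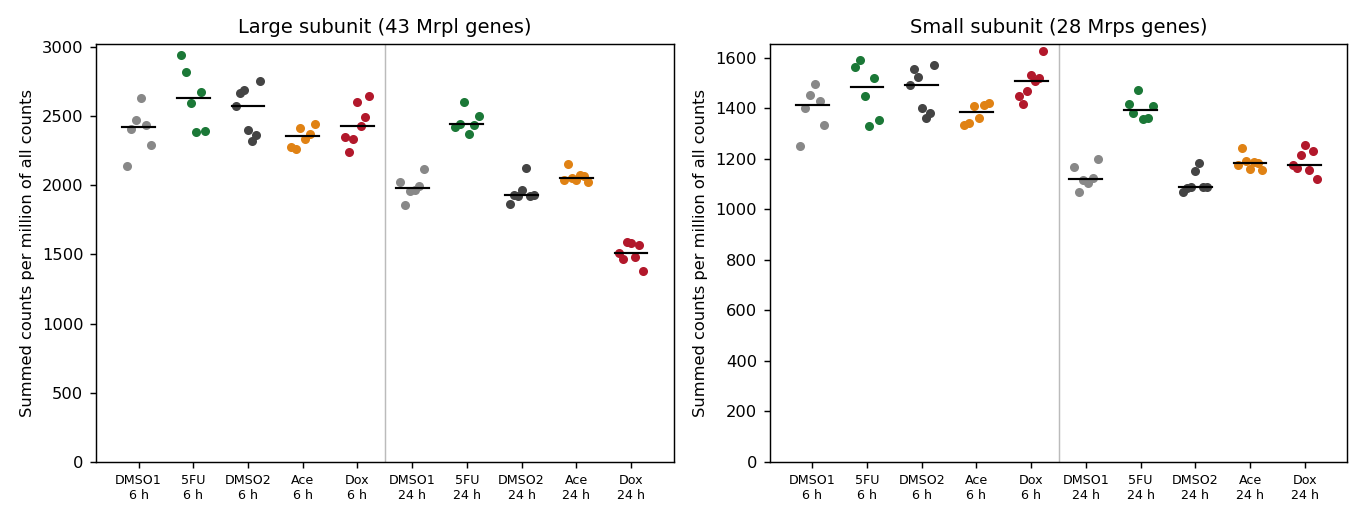
Summed level of the large subunit genes (left) and of the small subunit genes (right) in counts per 1000000 counts of the library (vertical axes, from 0), with a point for each library, a line at the median of each group and a grey line between 6 and 24 hours. The large subunit sum in Dox at 24 hours lies at 1380 to 1587, below every other group. The small subunit sum lies at 1120 to 1253. Subunits were assigned by symbol.

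Dox at 24 hours moved single genes far apart. Of all genes tested, 41% were called lower and 40.4% higher there, so that the 40 lower genes are 56.3% of the 71 and the 16 higher genes 22.5%. The median log2 fold change was -0.37, against 0.00 for all genes. Without the 3 libraries named above, 40 were called lower and 17 higher. In the same libraries the 8 cardiomyocyte markers summed to 8866 to 11854 CPM against 34833 to 46580 in DMSO2, and all 8 were called lower. The 7 fibroblast markers summed to 1913 to 4058 against 15076 to 18875 CPM and were all called lower as well. All 5 endothelial (median -2.21) and all 6 macrophage markers (median -1.44) were called lower, while 3 of 4 smooth muscle markers were called higher (median 2.22) and 0 lower. The part of cell composition in the results was not tested.

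The largest fall was that of Mrpl19, which has a counterpart at the subunit interface of bacterial ribosomes. It had 19.5 CPM in the lowest, 20.3 in the median and 21.3 in the highest DMSO2 library, and 3.27, 4.52 and 5.38 CPM in Dox. The groups were far from overlapping, and the change was -2.18 (SE 0.09, edgeR adjusted p = 4.21e-32). Mrpl15, a large subunit protein with a bacterial counterpart, had 133, 141 and 160 CPM in DMSO2 and 36, 37.6 and 40.1 in Dox, a change of -1.92 (SE 0.058, edgeR adjusted p = 1.87e-39). Again every Dox library lay far below the lowest DMSO2 library. Mrps16, a small subunit protein that is mutated in a form of mitochondrial disease, had 33.6, 35.4 and 43.4 CPM in DMSO2 and 6.7, 10.1 and 12.9 in Dox, a change of -1.91 (SE 0.09, edgeR adjusted p = 3.8e-29).

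The 3 largest increases in Dox at 24 hours were those of Mrps6, Mrps12 and Mrpl37. Mrps6, a small subunit protein with a bacterial counterpart, had 31.4, 33.3 and 39.9 CPM in DMSO2 and 76.8, 84.1 and 99.7 in Dox, a 2.53-fold difference (log2 1.34, SE 0.087, edgeR adjusted p = 4.18e-22). Its gene spans Slc5a3, a myo-inositol transporter gene, in the GRCr8 annotation, and whether reads of Slc5a3 enter its count was not tested. Mrps12, the counterpart of the bacterial decoding centre protein in which streptomycin resistance arises, had 25.4, 26.5 and 29.5 CPM in DMSO2 and 52.3, 59.2 and 64.1 in Dox (log2 1.12, SE 0.056, edgeR adjusted p = 5.26e-28). Mrpl37, a large subunit protein without a bacterial counterpart, had 62.2, 64.1 and 66.2 CPM in DMSO2 and 119, 129 and 137 in Dox (2.01-fold, SE of the log2 change 0.045, edgeR adjusted p = 2.94e-30). In all 3 genes the lowest Dox library lay above the highest DMSO2 library.

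**Figure D3:**
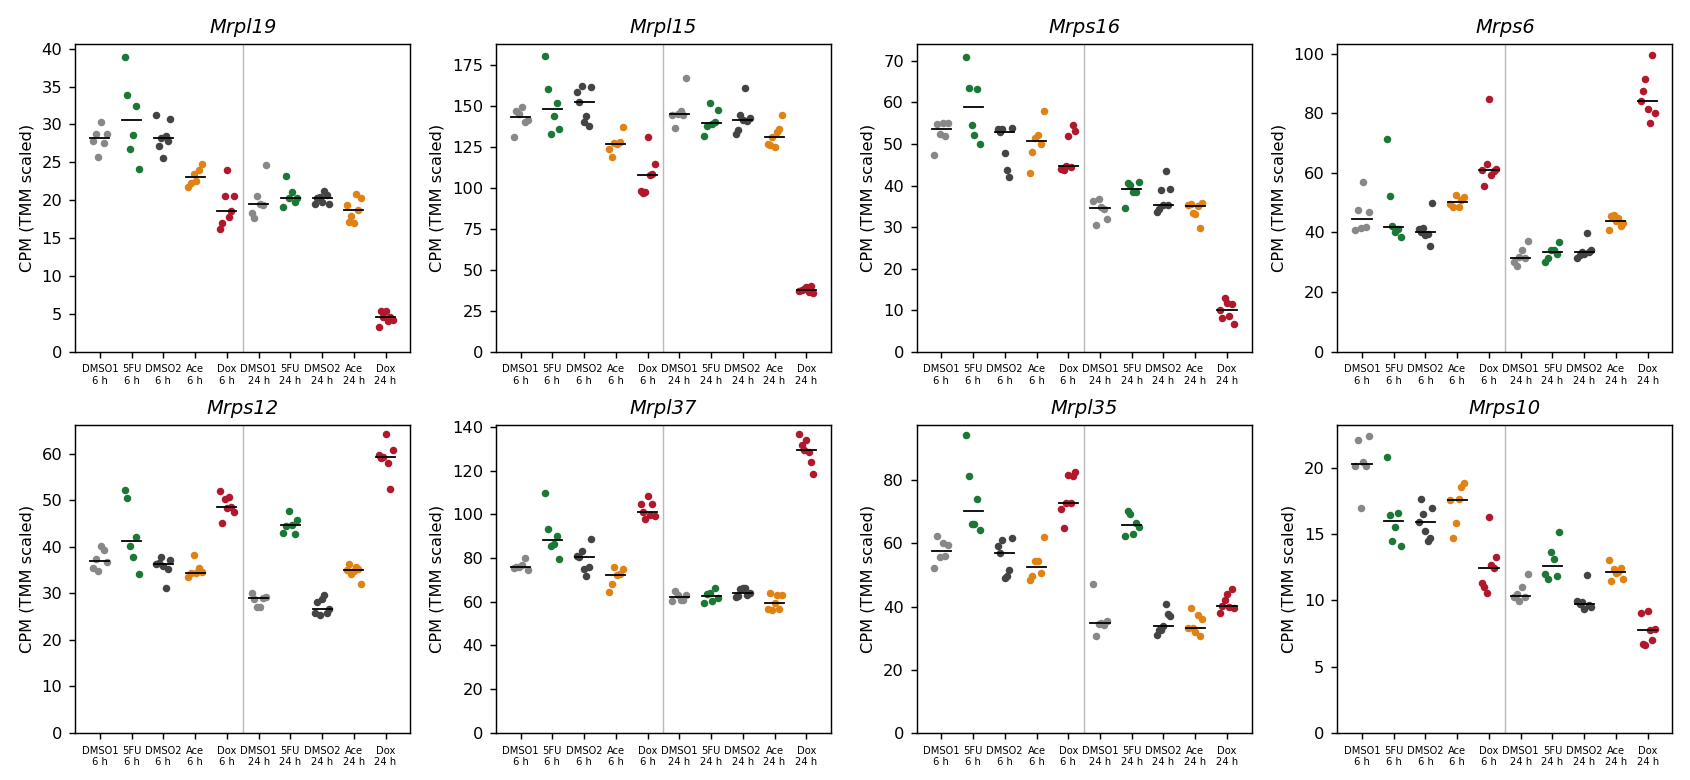
CPM after TMM scaling (vertical axes, from 0) of 8 genes in each library, by group, with a line at each group's median and a grey line between 6 and 24 hours. Mrpl19, Mrpl15 and Mrps16 are lowest in Dox at 24 hours (medians 4.52, 37.6 and 10.1), Mrps6, Mrps12 and Mrpl37 highest there (84.1, 59.2 and 129), Mrpl35 stands higher in 5FU than in DMSO1 at 24 hours, and Mrps10 differs between the DMSO groups at 6 hours.

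By place in the ribosome, the genes of the polypeptide exit tunnel and of the central protuberance were mostly lower in Dox at 24 hours, when 41% of all genes were called lower and 40.4% higher. The exit tunnel is where the new chain leaves the large subunit, and 4 of its 6 genes were called lower and 0 higher. Among them were Mrpl23 at -1.51, Mrpl22 at -1.36 and Mrpl32 at -0.85, while Mrpl45, which holds the ribosome at the inner membrane, had -0.05 and was not called. Of 9 genes of the central protuberance, a prominence at the top of the large subunit, 7 were called lower, with Mrpl40 at -1.84, Mrpl27 at -1.48 and Mrpl58 at -1.40. Mrpl58 is also a hydrolase that frees stalled chains. The exception was Mrpl46, called higher at 0.19.

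The stalk, which recruits translation factors, was divided. Mrpl12 was called lower at -1.39, Mrpl10, which forms the base that Mrpl12 binds, was called higher at 0.23, and Mrpl54 was called higher at 0.75. Mrpl53 had -0.46 and did not pass the test. Of 7 genes of the decoding site and messenger RNA channel, 3 were called higher (Mrps12, Mrps31 at 0.44 and Mrps7 at 0.39) and 2 lower (Mrps5 at -1.03 and Mrps24 at -0.88), which is near the shares over all genes. The 3 paralogs of Mrps18 each went their own way, with Mrps18b called higher at 0.73, Mrps18a called lower at -0.46 and Mrps18c at 0.01 and not called. Among 4 genes whose human counterparts are known for cardiomyopathy, Mrpl3 (-1.52), Mrpl44 (-1.01) and Mrps22 (-0.63) were called lower and Mrps14 (0.62) higher.

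By origin, of the 41 genes with a bacterial counterpart 25 were called lower and 6 higher in Dox at 24 hours, with a median of -0.44. Of the 29 without one 14 were called lower and 10 higher, with a median of -0.34. Among all genes 41% were called lower and 40.4% higher. No test of the difference between the origins was made.

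After 6 hours of Dox the picture was another. With TMM scaling 31 genes were called higher and 13 lower, which makes 70.5% of the called genes higher, and with scaling by library size alone 14 were higher and 23 lower (37.8% higher). Among all genes 31.5% were called higher and 32.7% lower with TMM. In numbers, 4589 of all genes were higher and 4760 lower with TMM, and 3064 higher and 5998 lower with library size alone. The median of the 71 genes was 0.15 with TMM and -0.0012 with library size, and the median of all genes shifted from 0.00 to -0.15. The direction of the family at 6 hours in Dox thus depended on the scaling, as did that of all genes. The median of the family lay above that of all genes with either scaling. Single genes are given relative to TMM below. Of the 7 fibroblast markers 5 were called lower, and of the 8 cardiomyocyte markers 3 higher and 3 lower. All 4 smooth muscle markers were called higher (median 1.62) and all 5 endothelial markers lower (median -1.55). The part of these cells was not tested.

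Mrps6 had 35.5, 40.1 and 49.9 CPM in DMSO2 at 6 hours and 55.5, 60.8 and 84.9 in Dox (log2 0.64, SE 0.086, edgeR adjusted p = 1.96e-09), with no overlap. Mrps26, a small subunit protein without a bacterial counterpart, had 35.4, 38.9 and 44 CPM in DMSO2 and 51.2, 57.6 and 60.8 in Dox (log2 0.53, SE 0.054, edgeR adjusted p = 2.59e-13). Mrpl46 of the central protuberance had 26.8, 28.4 and 30.6 CPM in DMSO2 and 35.1, 39.8 and 42.1 in Dox (log2 0.48, SE 0.056, edgeR adjusted p = 2.25e-11). All 3 kept their call with scaling by library size alone. The largest falls at 6 hours were those of Mrpl19, Mrpl15 and Mrpl40, of which Mrpl19 and Mrpl15 also fell most at 24 hours. Mrpl19 went from 25.6, 28.2 and 31.3 CPM to 16.1, 18.6 and 24 (log2 -0.56, SE 0.077, edgeR adjusted p = 1.98e-09). Mrpl15 went from 137, 152 and 162 CPM to 96.5, 108 and 131 (log2 -0.49, SE 0.055, edgeR adjusted p = 7.07e-12). Mrpl40 went from 41.6, 46.1 and 47.7 CPM to 28.6, 34.8 and 39.8 (log2 -0.39, SE 0.061, edgeR adjusted p = 8.92e-08). In each of the 3 the highest Dox library lay below the lowest DMSO2 library.

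The calls at 6 and 24 hours of Dox are set side by side. Of the 31 genes called higher at 6 hours, 13 (41.9%) were called higher and 9 (29%) lower at 24 hours, against 72.7% and 13.4% of all genes called higher at 6 hours. Of the 13 called lower at 6 hours, 9 (69.2%) were called lower and 2 (15.4%) higher, against 72.6% and 12.4% of all such genes. Of the 27 genes not called at 6 hours, 22 (81.5%) were called lower at 24 hours, against 36.3% of all such genes. The 24-hour effect minus the 6-hour effect was called negative in 43 genes and positive in 11, against 30.8% and 34% of all genes. With scaling by library size alone those counts were 36 and 18. Of the called genes among the 71, 33.3% were then positive in place of 20.4%. Over all genes 6234 were called positive and 3379 negative with library size, against 4946 and 4478 with TMM. The median of all genes shifted from 0.07 to 0.27. Mrpl23 of the exit tunnel turned from 0.33 to -1.51, a difference of -1.85 (SE 0.116, edgeR adjusted p = 4.26e-22). Mrps31 turned the other way, from -0.18 to 0.44, a difference of 0.63 (SE 0.084, edgeR adjusted p = 1.41e-09). Across the 71 genes the 6-hour and 24-hour changes had a Spearman correlation of 0.57, given as a description because the genes share libraries.

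**Figure D4:**
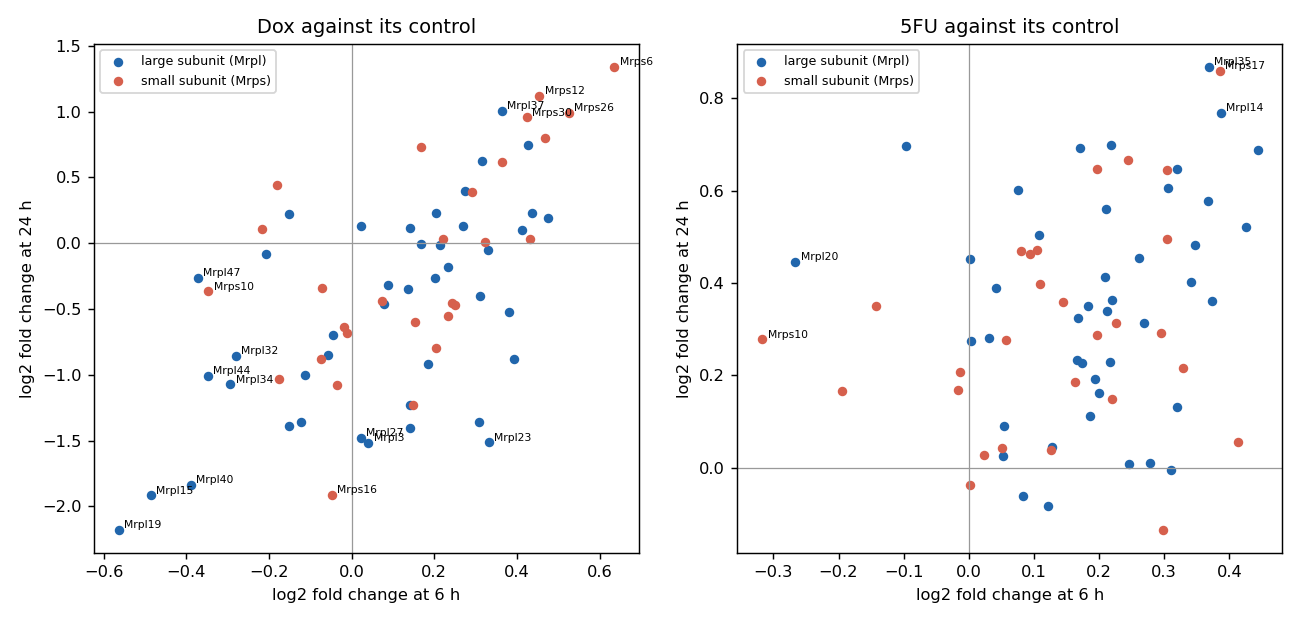
Log2 fold change at 24 hours (vertical) against that at 6 hours (horizontal) for the 71 genes in Dox (left) and 5FU (right). Genes with Mrpl symbols are in blue and genes with Mrps symbols in red. In Dox most points lie below 0 at 24 hours, down to -2.18 for Mrpl19, and the 6-hour Dox values depend on the scaling, with a median of 0.15 by TMM and -0.0012 by library size; in 5FU nearly all points lie above 0 at 24 hours, up to 0.87 for Mrpl35.

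In 5FU nearly all calls went one way. At 24 hours 50 of 71 genes were called higher (70.4%) and 0 lower, where 28% of all genes were called higher and 27.8% lower. At an unadjusted p below 0.05 there were 53 higher and 0 lower genes, and DESeq2 called 50. The median log2 fold change was 0.32 against -0.01 for all genes, and 66 of the 71 values were above 0. By subunit, 31 of 43 large subunit and 19 of 28 small subunit genes were called higher. The 8 cardiomyocyte markers summed to 21289 to 23192 CPM against 31487 to 39095 in DMSO1, with 1 called higher and 6 lower, and the 7 fibroblast markers to 5156 to 5826 against 9958 to 19887 CPM, all called lower. Of 5 endothelial and 6 macrophage markers 3 each were called lower, and of 4 smooth muscle markers 2 were called higher and 2 lower. Their part in the result was not tested.

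Mrpl35, a large subunit protein with a bacterial counterpart, had 30.7, 34.7 and 47.1 CPM in DMSO1 at 24 hours and 62.3, 65.9 and 70.2 in 5FU (1.82-fold, log2 0.87, SE 0.081, edgeR adjusted p = 1.68e-14). Mrps17, a small subunit protein with a bacterial counterpart, had 35.9, 37.5 and 45.6 CPM in DMSO1 and 68.9, 69.7 and 73.6 in 5FU (log2 0.86, SE 0.06, edgeR adjusted p = 2.27e-19). Mrpl14 of the subunit interface had 31.5, 40.8 and 54 CPM in DMSO1 and 65.6, 68.3 and 75.6 in 5FU (log2 0.77, SE 0.079, edgeR adjusted p = 5.33e-13). The 5FU libraries lay above all DMSO1 libraries in each of these genes. Among the stalk genes, Mrpl53 (0.70), Mrpl10 (0.69) and Mrpl54 (0.40) were called higher, and Mrpl12 had -0.00 and was not called. All 6 exit tunnel genes and all 9 central protuberance genes had values above 0, of which 4 and 5 passed the test.

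At 6 hours of 5FU 36 genes were called higher and 3 lower, against 23.4% and 24.5% of all genes, with a median of 0.19. The count of 36 rested partly on single libraries: without 5FU library 1 it was 21, without 5FU library 2 it was 23, and without the 3 libraries that stood apart it was 22. With scaling by library size alone it was 19, with a median of 0.11. Mrpl10 had 49.1, 51.4 and 55.7 CPM in DMSO1 and 66.2, 70.8 and 74.6 in 5FU (log2 0.44, SE 0.047, edgeR adjusted p = 1.9e-12). Mrpl33, a small large-subunit protein with a bacterial counterpart, had 44.3, 48.4 and 52.2 CPM in DMSO1 and 59.2, 61.7 and 81.8 in 5FU (log2 0.43, SE 0.084, edgeR adjusted p = 1.44e-05). Mrps23, without a bacterial counterpart, had 58.8, 65.8 and 69.7 CPM in DMSO1 and 77.9, 86.8 and 97.6 in 5FU (log2 0.41, SE 0.055, edgeR adjusted p = 2.83e-09). The groups did not overlap in these 3 genes.

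The 3 genes called lower by 5FU at 6 hours were all called higher at 24 hours. Of the 3563 genes called lower at 6 hours among all genes, 12.1% were called higher and 51.1% lower at 24 hours. Mrps10 had 16.9, 20.3 and 22.4 CPM in DMSO1 and 14.1, 16 and 20.8 in 5FU (log2 -0.32, SE 0.083, edgeR adjusted p = 0.000895), and the groups overlapped. It was the gene that differed between the DMSO groups, and DMSO2 at 6 hours had 14.5, 15.9 and 17.6 CPM, in the range of 5FU. Mrpl20 had 45.7, 54.2 and 59.5 CPM in DMSO1 and 36, 44.7 and 56 in 5FU (log2 -0.27, SE 0.084, edgeR adjusted p = 0.00514), also with overlap. Its call was lost without any of 5FU libraries 3, 4 or 6 or DMSO1 libraries 4 or 5, with edgeR adjusted p from 0.0148 to 0.0295. Mrps5, at the entry of the messenger RNA channel, had 52.2, 57 and 58.8 CPM in DMSO1 and 45.8, 49.5 and 51.9 in 5FU (log2 -0.20, SE 0.052, edgeR adjusted p = 0.00114), without overlap. When just the 2 compared groups were fitted, the calls of Mrps10 and Mrpl20 were lost, with edgeR adjusted p of 0.011 and 0.0462.

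The 5FU log2 fold change at 24 hours minus that at 6 hours was called positive in 23 genes and negative in 3, against 20.3% and 19.2% of all genes. Mrpl20 of the large subunit had a difference of 0.71 (SE 0.119, edgeR adjusted p = 1.01e-06), while Mrps23 went from 0.41 at 6 hours to 0.06 at 24 hours, a difference of -0.36 (SE 0.078, edgeR adjusted p = 0.000112).

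Ace gave the fewest calls among the drugs. At 6 hours 3 (4.23%) were called higher and 11 (15.5%) lower, against 16.5% and 15.2% of all genes, with a median of -0.04. The share called lower is near that of all genes. In the same comparison 5 of 7 fibroblast markers and 1 of 8 cardiomyocyte markers were called lower, and their part in the result was not tested. Mrpl47, a relative of bacterial L29 near the exit tunnel, had 24.7, 26.9 and 31.1 CPM in DMSO2 and 17.9, 19.6 and 22.6 in Ace (log2 -0.47, SE 0.076, edgeR adjusted p = 6.21e-07), without overlap. Its gene overlaps Ndufb5 and Actl6a in GRCr8, which were counted as genes of their own. Mrpl12 of the stalk had 151, 178 and 202 CPM in DMSO2 and 131, 142 and 148 in Ace (log2 -0.33, SE 0.08, edgeR adjusted p = 0.000582). Mrps18b had 40.8, 44 and 51.2 CPM in DMSO2 and 32, 36 and 39.1 in Ace (log2 -0.31, SE 0.064, edgeR adjusted p = 7.89e-05). For both genes the highest Ace library lay below the lowest DMSO2 library.

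The 3 genes called higher by Ace at 6 hours overlapped their control. Mrps26 had 35.4, 38.9 and 44 CPM in DMSO2 and 43.1, 45.5 and 48.5 in Ace (log2 0.21, SE 0.056, edgeR adjusted p = 0.00132). Mrps6 had 48.5, 50.2 and 52.5 CPM in Ace (log2 0.30, SE 0.09, edgeR adjusted p = 0.0053), and the call was lost without DMSO2 library 4, 5 or 6 (edgeR adjusted p from 0.0105 to 0.0119). Mrpl10 had 46, 50.9 and 55.4 CPM in DMSO2 and 52, 56.2 and 57.9 in Ace (log2 0.14, SE 0.045, edgeR adjusted p = 0.00775). The Mrpl10 call was lost without any of Ace libraries 1 to 5 or DMSO2 libraries 1, 4 or 5 (edgeR adjusted p from 0.0102 to 0.0199), and also with library size alone (edgeR adjusted p = 0.0709) and with the compared groups only (edgeR adjusted p = 0.0114). Without DMSO2 library 4 or 5 a single gene was called higher.

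At 24 hours of Ace 14 genes (19.7%) were called higher and 2 (2.82%) lower, against 18.2% and 19.1% of all genes. The share called higher is near that of all genes, and the median was 0.02. Mrps6 had 31.4, 33.3 and 39.9 CPM in DMSO2 and 40.9, 43.7 and 45.9 in Ace (log2 0.37, SE 0.088, edgeR adjusted p = 0.000381). Mrps12 had 25.4, 26.5 and 29.5 CPM in DMSO2 and 32, 35 and 36.4 in Ace (log2 0.36, SE 0.056, edgeR adjusted p = 2.35e-07). Mrpl49, a large subunit protein without a bacterial counterpart, had 14.7, 15.3 and 16.1 CPM in DMSO2 and 18.9, 19.2 and 20.6 in Ace (log2 0.35, SE 0.057, edgeR adjusted p = 3.83e-07). None of the 3 overlapped its control. The 2 genes called lower were Mrpl40, with 38.7, 41.5 and 44.5 CPM in DMSO2 and 29.8, 32 and 35.2 in Ace (log2 -0.35, SE 0.062, edgeR adjusted p = 3.08e-06), and Mrps31, with 28.9, 31.5 and 34.3 CPM in DMSO2 and 24.1, 27.3 and 29.2 in Ace (log2 -0.24, SE 0.061, edgeR adjusted p = 0.000898). The Ace range of Mrpl40 lay below that of DMSO2, and that of Mrps31 overlapped it. All 7 fibroblast markers were called lower in Ace at 24 hours, with sums of 7236 to 9264 CPM against 15076 to 18875 in DMSO2. Of 6 macrophage markers 5 were called lower, and of 8 cardiomyocyte markers 3, with 0 higher in either list. Their part in the result was not tested.

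The Ace log2 fold change at 24 hours minus that at 6 hours was called negative in 0 genes, against 6.06% of all genes. At an unadjusted p below 0.05 there was 1 negative gene, and DESeq2 called 5 in either direction. The difference was called positive in 5 genes (7.04%), near the 5.58% of all genes. They were Mrpl17, Mrpl47, Mrpl51, Mrps12 and Mrps18b, with differences of 0.27 to 0.40. Mrpl47 and Mrps18b were called lower at 6 hours and had -0.07 and 0.03 at 24 hours, where they were not called. Mrps12 had -0.03 at 6 and 0.36 at 24 hours, a difference of 0.38 (SE 0.08, edgeR adjusted p = 0.00027).

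Over the 6 drug comparisons, Mrpl10 and Mrps26 were called higher in all 6. In each comparison 16.5% to 40.4% of all genes were called higher, and the share called higher in all 6 was not computed. In Ace at 6 hours the Mrpl10 call was lost in 8 of 13 fits that left out 1 library, and the Mrps26 call in 0. Mrps26 had log2 fold changes of 0.30 and 0.64 in 5FU, 0.21 and 0.32 in Ace and 0.53 and 0.99 in Dox at 6 and 24 hours, and Mrpl10 had 0.44 and 0.69, 0.14 and 0.28, and 0.20 and 0.23. The Ace and Dox comparisons share the DMSO2 libraries. Mrpl1, the gene with the lowest counts, was called in none, with values from -0.71 (SE 0.332) in Ace at 6 hours to 0.63 (SE 0.343) in Dox at 24 hours, so that changes of this size were not detectable for it. Another 8 genes were called in 1 comparison, 11 in 2, 26 in 3, 16 in 4 and 7 in 5. The same counts over all genes were not made.

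5FU and Dox, which have separate controls, are set side by side at 24 hours. Of the 50 genes called higher in 5FU, 26 were called lower in Dox (52% of the 50 and 65% of the 40 lower in Dox) and 12 higher (24%). Of the 4070 genes called higher in 5FU among all genes, 34.5% were called lower in Dox and 48.8% higher. No test of this difference was made. Mrpl22 of the exit tunnel had 0.70 in 5FU and -1.36 in Dox, Mrps17 had 0.86 and -0.60, and Mrpl20 had 0.45 and -0.92. The genes that fell most in Dox, Mrpl19, Mrpl15 and Mrps16, had 0.05, -0.06 and 0.19 in 5FU and were not called there. The difference between the drugs was not tested gene by gene.

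Set beside other families, the mitochondrial ribosomal protein genes went with the cytosolic ribosomal protein genes at some times and against them at others. In 5FU at 6 hours 53 of 56 cytosolic ribosomal protein genes and 33 of 34 complex I genes were called higher. Their medians were 0.32 and 0.34, and the share of all genes called higher was 23.4%. In 5FU at 24 hours 2 of the cytosolic genes were called higher and 18 lower (median -0.13). Complex I had 18 higher and 0 lower (median 0.20), beside 28% and 27.8% of all genes. In Dox at 6 hours 55 of 56 cytosolic and 32 of 34 complex I genes were called higher, where the share over all genes was 31.5%. With library size alone 53 and 20 were still called higher. In Dox at 24 hours 35 cytosolic genes were called higher and 4 lower (median 0.27), against 16 and 40 in the mitochondrial set (median -0.37). Complex I had 8 higher and 12 lower (median -0.01), where 40.4% of all genes were called higher and 41% lower. In Ace neither family had a call at 6 hours, although 31.7% of all genes were called there in either direction. At 24 hours the cytosolic and complex I genes had 0 and 1 higher and 3 and 4 lower. The shares over all genes were then 18.2% higher and 19.1% lower. These are counts beside each other, and no test of the sets was made.

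**Figure D5:**
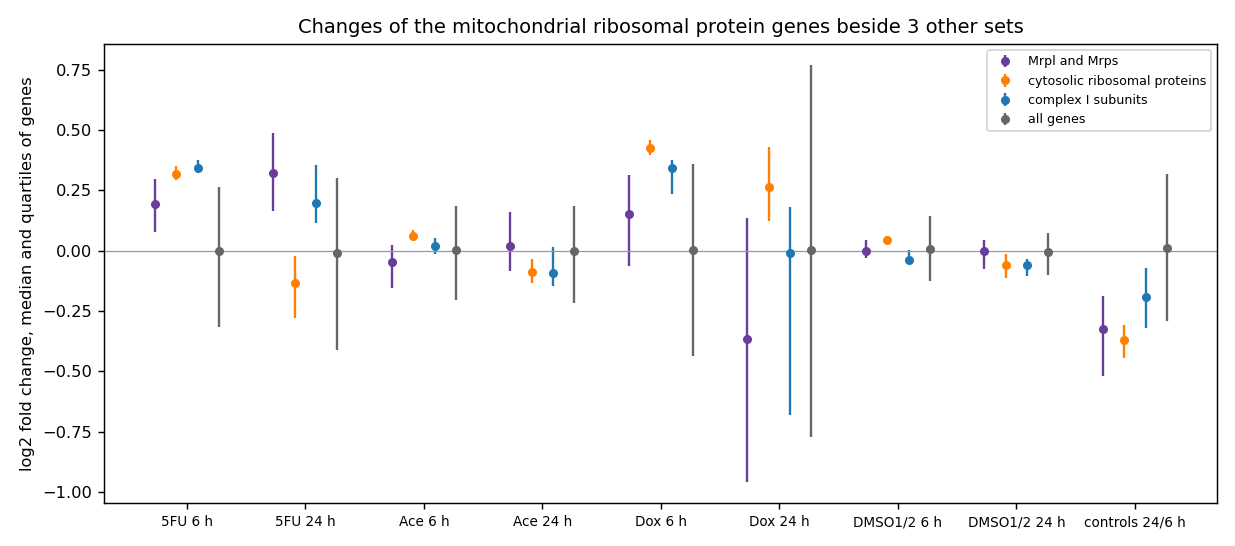
Median log2 fold change (points) and quartiles over genes (bars) in each comparison for the 71 mitochondrial ribosomal protein genes, 56 cytosolic ribosomal protein genes, 34 complex I genes and all 14554 genes. In Dox at 24 hours the mitochondrial set has a median of -0.37 and the cytosolic set 0.27, in 5FU at 24 hours they have 0.32 and -0.13, and the medians in Dox at 6 hours depend on the scaling, with 0.15 for the mitochondrial set by TMM and -0.0012 by library size.

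Genes that act with the mitochondrial ribosome were called in both directions in Dox at 24 hours, as were all genes, of which 40.4% were called higher and 41% lower. Shares of the lists near these are no result about them. Of 27 genes of ribosome assembly and rRNA modification, 12 were called higher and 13 lower. The GTPase Mtg1, which acts late in large subunit assembly, had -2.93, and Malsu1, an assembly factor of the large subunit, had -1.91. Noa1, a GTPase linked to small subunit assembly, had 1.85, and Mrm3, which methylates the large rRNA, had 1.40. Of 15 translation factors and related genes, 4 were called higher and 8 lower, with the initiation factor Mtif3 at -1.29, the recycling factor Mrrf at -1.21 and the elongation factors Tufm and Gfm1 at 0.52 and 0.49. Of 16 mitochondrial tRNA synthetases, 6 were called higher and 8 lower, from Wars2 at -2.08 to Yars2 at 1.15. Of 5 ribosomal proteins with other names, Aurkaip1 (1.02) and Dap3 (0.49) were called higher and Gadd45gip1 (-1.37), Ptcd3 (-0.30) and Chchd1 (-0.24) lower. Of 13 genes of mitochondrial DNA maintenance and transcription, 7 were called higher and 5 lower, with the helicase Twnk at 1.43 and the packaging factor Tfam at 0.48; Mrpl43 overlaps Twnk in GRCr8 and had 0.12.

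In 5FU at 24 hours, where 28% of all genes were called higher and 27.8% lower, the same lists had other counts. Of the 27 assembly genes 18 were called higher and 2 lower, with Mettl17, a small subunit assembly factor, at 1.32, Mrm1 at 0.76 and Noa1 at -0.32. Of the 16 synthetases 6 were called higher and 0 lower, and of the 13 genes of mitochondrial DNA maintenance and transcription 6 higher and 1 lower, with the RNA polymerase Polrmt at 0.66. The 15 translation factors had 3 higher and 3 lower. In Ace at 24 hours these 4 lists had 5, 5, 2 and 1 genes called higher and 1, 0, 0 and 2 lower, in the order given. Of all genes 18.2% were called higher and 19.1% lower there, and shares of the lists near these are no result about them.

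The regulators known for genes of this kind are the factors NRF1, GABP and YY1 and the coactivators of the PGC-1 family. In Dox at 6 hours 7 of 9 such genes were called lower and 1 higher (all genes 32.7% and 31.5%), with Nrf1 at -1.88, Ppargc1a at -1.72 and Ppargc1b at -1.67. In Dox at 24 hours 3 were called higher and 4 lower, near the 40.4% and 41% of all genes, with Ppargc1a at -2.18, Nrf1 at -0.45, Yy1 at 0.73 and Pprc1 at 0.96. In 5FU at 24 hours 6 were called lower and 1 higher (all genes 27.8% and 28%), with Myc at -1.87 and Esrra at 0.49.

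Promoter sequence was available from RefSeq (GRCr8) for 57 of the 71 genes, as 250 bases before to 50 bases after the annotated start. Short motifs were searched on both strands in these windows and in 27457 promoters of the same length. The full NRF1 site, the core CGCATGCG with a further G before and C after it, was in 4 of the 57 (7.02%) and in 0.932% of all promoters, and the core alone, which every full site holds, was in 6 of the 57 and in 1.81% of all. The ETS motif that GABP reads (CCGGAAG) was in 33.3% against 9.22%, the YY1 motif (AAGATGGCG) in 8 of the 57 against 1.93% of all, the GC box (GGGCGG) in 49.1% against 34.9%, and CCAAT in 43.9% against 37.7%. The E-box (CACGTG) was in 7.02% against 6.65%, and TATAAA in 12.3% against 14.3%.

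The motifs were spread over genes that rose and fell in Dox at 24 hours. The ETS motif was in 3 of 14 genes called higher, 10 of 30 called lower and 6 of 13 not called, the full NRF1 site in 1, 2 and 1 of them, and the YY1 motif in 3, 5 and 0. These are matches of letters and are given without a test. For the full NRF1 site and for the ETS motif, the gene with the largest rise and the gene with the largest fall in Dox at 24 hours among those with a match in the 120 bases before the start are shown (a gene already shown is not repeated), with motif matches on either strand in capitals. Mrps18b (0.73 in Dox at 24 hours; chr20:2842886-2843005, plus strand) and Mrpl32 (-0.85; chr17:55260531-55260650, plus strand) hold the NRF1 site. Mrps31 (0.44; chr16:76324066-76324185, minus strand) and Mrpl23 (-1.51; chr1:207116810-207116929, plus strand) hold the ETS motif.
Mrps18b: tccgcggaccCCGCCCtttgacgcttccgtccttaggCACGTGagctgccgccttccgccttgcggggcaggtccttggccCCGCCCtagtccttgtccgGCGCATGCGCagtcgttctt
Mrpl32: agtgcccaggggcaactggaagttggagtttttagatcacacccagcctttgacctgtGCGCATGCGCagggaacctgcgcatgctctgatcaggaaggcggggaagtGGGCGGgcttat
Mrps31: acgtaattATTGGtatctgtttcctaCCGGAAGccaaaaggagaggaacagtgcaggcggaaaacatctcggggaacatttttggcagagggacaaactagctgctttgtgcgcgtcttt
Mrpl23: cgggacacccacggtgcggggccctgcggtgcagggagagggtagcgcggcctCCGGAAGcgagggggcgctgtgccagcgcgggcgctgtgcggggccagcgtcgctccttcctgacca
In Mrps18b and Mrpl32 the same 10 bases stand in capitals before a gene that rose and before a gene that fell.

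Counts of some genes carry an uncertainty of assignment. Annotated pseudogene copies exist for 21 of the 71 genes, and 15 overlap another protein-coding gene in GRCr8. Among the genes given by library, Mrps6 (Slc5a3), Mrps12 (LOC103689966), Mrpl37 (Ssbp3) and Mrpl14 (Tmem63b) overlap another gene. So do Mrpl10 (Lrrc46), Mrpl47 (Ndufb5 and Actl6a) and Mrpl49 (Syvn1). The others are Mrpl16 (Stx3), Mrpl22 (Gemin5), Mrpl27 (Eme1), Mrpl43 (Twnk), Mrpl48 (Rab6a), Mrpl55 (Guk1), Mrpl57 (Ska3) and Mrps2 (Pierce1). Mrpl15, Mrps16 and Mrpl40, which fell in Dox, have 2 pseudogene copies each, and Mrpl19 has 0. Mrpl46 and Mrps11 lie next to each other, within 1000 bases, and had 0.48 and 0.22 in Dox at 6 hours and 0.60 and 0.47 in 5FU at 24 hours, all called higher. In Dox at 24 hours Mrpl46 was called higher at 0.19 and Mrps11 had 0.03 and was not called, and neither was called in 5FU at 6 hours or in Ace.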

How the data were processed

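RNA was sequenced from 65 libraries of neonatal rat cardiomyocytes. The authors pseudo-aligned the reads to the rat Ensembl transcriptome with kallisto 0.46.0, summed transcripts to genes with tximport and dropped genes with few counts. The deposited table holds their estimated counts per gene as whole numbers. Columns were matched to groups by name. The counts were used as deposited, with genes kept at 10 counts in at least 1 library. A single model of the 10 groups was fitted with edgeR 4.0.16 (R 4.3.3), TMM scaling and the quasi-likelihood test, with a Benjamini-Hochberg FDR threshold of 0.01. The procedure was tested on simulated data. P-values measure the spread between wells of 1 mixed cell preparation. Without gene lengths, no level per length is given.

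The genes and lists were chosen with earlier results of these data known. Values by library are given, in each drug comparison, for the genes past the threshold that rose most and fell most (3 each, with a mean count of at least 100). Fold changes are given for genes of the role lists, for the largest changes in the DMSO and time comparisons, for genes called in all or none of the 6 drug comparisons, and for related genes of mitochondrial translation. Genes compared between 5FU and Dox at 24 hours, motif holders and neighbouring genes were chosen after their values were seen.

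The alternatives tried were DESeq2 1.42.0, its size factors, library size without TMM, a filter by edgeR's filterByExpr, a fit of the compared groups only, an FDR of 0.1, and leaving out each library. Promoters were RefSeq sequences of GRCr8.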

Additional observations from a re-analysis of the deposited data

Results flagged for a closer look

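In 8 of 70 groups of libraries tested, 1 library stood apart from the rest by Dixon's criterion, where chance gives about 1 in 20. The 71 genes together took 3396 per 1000000 counts in Ace library 2 at 24 hours, against 3258 in the next library. Mrpl33 had 81.8 CPM and Mrps10 20.8 CPM in the highest 5FU libraries at 6 hours (libraries 2 and 1). Mrpl35 had 47.1 CPM in DMSO1 library 1 at 24 hours. Mrps6 had 49.9 CPM in DMSO2 library 7 at 6 hours, 39.9 in DMSO2 library 5 at 24 hours and 84.9 in Dox library 4 at 6 hours. Mrpl15 had 160 CPM in DMSO2 library 5 at 24 hours.

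The genes given by library were chosen for large changes at 6 or 24 hours in these data, which favours a difference between the times. Over all genes the difference was called in 64.8% for Dox, 39.5% for 5FU and 11.6% for Ace. Of 28 pairs of a drug and such a gene, 20 differed between 24 and 6 hours in edgeR's quasi-likelihood test of the difference itself. The count of 20 is thus no result about these genes. In 5FU the log2 differences were positive for Mrpl20 (0.71), Mrps10 (0.60), Mrpl35 (0.50), Mrps17 (0.48), Mrpl14 (0.38), Mrps5 (0.36) and Mrpl10 (0.25), and negative for Mrps23 (-0.36). In Ace they were positive for Mrpl47 (0.40), Mrps12 (0.38) and Mrps18b (0.34). In Dox they were positive for Mrps6 (0.70), Mrps12 (0.67), Mrpl37 (0.64) and Mrps26 (0.46), and negative for Mrps16 (-1.87), Mrpl19 (-1.61), Mrpl40 (-1.45), Mrpl15 (-1.43) and Mrpl46 (-0.28).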

How the results depend on the processing

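The counts of mitochondrial ribosomal protein genes called in Dox and 5FU at 24 hours and in the controls over time stayed within 1.5 times under every alternative run. With library size alone the genes called higher were 19 in 5FU at 6 hours, 14 in Dox at 6 hours (23 lower, median -0.0012), 13 for the Ace difference between the times and 18 for that of Dox (median -0.28), and 3 were called lower in DMSO1 against DMSO2 at 6 hours. With just the compared groups fitted, 5FU at 6 hours had 19 higher and 1 lower, and Ace at 24 hours 6 lower. At an FDR below 0.1, Ace gave 5 higher and 24 lower at 6 hours and 8 lower at 24 hours, the DMSO comparison at 6 hours 3 higher and 2 lower, the 5FU difference between the times 5 lower and that of Ace 12 higher. Without the 3 libraries that stood apart, chosen after seeing the data, 22 were higher in 5FU at 6 hours, 4 lower in Ace at 24 hours and 2 higher in DMSO1 at 6 hours. After TMM scaling the summed share in Ace at 24 hours was 3126 per 1000000 counts. With single libraries left out there were 21 to 40 genes higher in 5FU at 6 hours (21 without 5FU library 1, 23 without 5FU library 2), 1 to 3 in Ace at 6 hours (1 without DMSO2 library 4 or 5) and 1 to 2 in the DMSO comparison (2 without DMSO1 library 3). The cause was not tested. No value of a gene given by library changed sign. No paired analysis was possible because the columns of the count table carry no replicate numbers. Depth limits mainly Mrpl1, with a mean of 32 counts.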
